A study of Mus musculus with 6 samples.

Results

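The genes described here are 10 ligands and receptors of the Gdnf and neurotrophin systems, taken by symbol from a deposited table of 26852 mouse genes: the receptors *Ret*, *Gfra1*, *Gfra2*, *Ntrk2*, *Ntrk3* and *Ngfr*, and the ligands *Gdnf*, *Nrtn*, *Bdnf* and *Ntf3*. RNA came from midbrains of E14.5 embryos (E, embryonic day) on a C57Bl/6 background. Lmx1b cKO embryos were Lmx1b fl/fl;Pitx3-Cre, and controls were Lmx1b wt/wt;Pitx3-Cre, so that both groups carried the Cre. The study's methods give both genotypes as Pitx3Cre/+, with the Cre at the *Pitx3* locus. The deletion is therefore limited to cells that express *Pitx3*, the midbrain dopaminergic (mdDA) neurons, within a dissection that held all other midbrain cells with their *Lmx1b* intact. Each group had 3 libraries, each from pooled embryos, and the embryos came from several litters.

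Glial cell line-derived neurotrophic factor (*Gdnf*) and neurturin (*Nrtn*) are secreted factors that bind a lipid-anchored co-receptor, *Gfra1* or *Gfra2*, and signal through the receptor tyrosine kinase *Ret*. Brain-derived neurotrophic factor (*Bdnf*) and neurotrophin 3 (*Ntf3*) bind the kinases TrkB (*Ntrk2*) and TrkC (*Ntrk3*), and all neurotrophins also bind the p75 receptor (*Ngfr*). mdDA neurons carry receptors of both systems, and these factors are known for promoting the survival and axon growth of dopaminergic neurons in culture.

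No member passed the test between Lmx1b cKO and control midbrains. Limma was run on 16680 genes with a mean of at least 10 normalized counts, and 8 of the 10 members were among them. After Benjamini-Hochberg adjustment over all tested genes, no member and no other gene (0%) had an adjusted p under 0.05, and all 8 members had an adjusted p of 0.9999. At an unadjusted p under 0.05, limma called 466 genes, or 2.79% of those tested, with 1.61% lower and 1.18% higher in the Lmx1b cKO, and 0 of the 8 members were among them. The median log2 difference of the 8 members was -0.03, where the median over all tested genes was -1.3e-05. The 95% interval lay within 1.5-fold in either direction for 7 of the 8 members, the exception being *Nrtn*.

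The values are normalized counts, meaning read counts divided by a size factor for each library. The deposited table gives them as the mean of each group only, and the whole reads of each library were recovered from the digits of these means. A recovered library has a genotype but no sample number, and the libraries of each group are called a, b and c here by falling size factor. They held 20629683 to 25051860 recovered reads each, which leaves out the most abundant genes and the lines that name no gene. Because whole midbrain was sequenced, fewer cells of a type and less RNA per cell cannot be told apart in any value below. *Lmx1b* itself lay between 1257 and 1474 normalized counts in all libraries, with overlapping groups. The exact permutation p was 0.8. The table gives 1 total per gene and does not separate the deleted exons or the cells outside the deletion, so the genotype could not be checked from it.

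*Ret*, the shared signalling receptor of the Gdnf family (chr6:118151745-118197718, minus strand, GRCm38), had 951, 823 and 854 normalized counts in Lmx1b cKO libraries a, b and c. It had 903, 1057 and 1067 in control libraries a, b and c. Libraries b and c of the Lmx1b cKO were below every control library, but library a was above the lowest control, so the groups overlapped. The means were 876 ± 66.7 and 1009 ± 91.7 (SD, n = 3 each), a log2 difference of -0.19 (SE 0.092) with a 95% interval of 0.761-fold to 1.01-fold. Limma gave *Ret* an unadjusted p of 0.0595, the smallest among the 8 members, and an exact two-sided permutation test gave p = 0.2, where the smallest value possible with 3 against 3 libraries is 0.1. The unadjusted p was 0.0263 without Lmx1b cKO library a and 0.00995 without control library a, while the adjusted p stayed at 0.9995 and 0.9939. *Ddx3y*, a gene on the Y chromosome, had 621 normalized counts in control library a against 1797 and 1818 in the other control libraries. The Lmx1b cKO libraries, at 894 to 1089, were nearer to control library a than to those. Without control library a, *Ddx3y* had a log2 difference of -0.82 with an adjusted limma p of 0.00785. The sexes of the pooled embryos are not given in the sources used here, and the part of this difference between pools in the values of *Ret* was not tested. The SD within groups was 8.51% of the mean, and read counting alone gives 3.26%.

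*Gfra1*, the co-receptor that prefers Gdnf (chr19:58235604-58455909, minus strand), had 2708, 2927 and 2919 normalized counts in the Lmx1b cKO. The controls had 2948, 3043 and 3143. Every Lmx1b cKO library was below every control library, and *Gfra1* was the 1 tested member of 8 (12.5%) whose groups did not overlap, where 7.67% of all tested genes had groups that did not overlap. The gap between the nearest libraries, 2927 and 2948, was small against the spread within either group. Means of 2851 ± 124 and 3045 ± 97.5 (SD, n = 3 each) gave a log2 difference of -0.10 (SE 0.055), with a 95% interval from 0.861-fold to 1.02-fold and an unadjusted limma p of 0.112. The exact permutation p was 0.1, the smallest this design allows. Exons of *Gfra1* share 416 bases (7.60% of its exon length) with the antisense gene *Gm16277*, whose own mean was 1.06 normalized counts in the Lmx1b cKO and 2.28 in the controls. Whether reads were counted by strand is not given in the sources used here.

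*Gfra2*, the co-receptor that prefers neurturin (chr14:70890120-70979838, plus strand), showed almost equal means of 1221 ± 49.7 in the Lmx1b cKO and 1227 ± 172 in the controls (SD, n = 3 each). Its Lmx1b cKO libraries had 1259, 1238 and 1165 normalized counts. Its control libraries had 1075, 1413 and 1191, and so spanned all Lmx1b cKO values. The log2 difference was 0.0063 (SE 0.096), the 95% interval ran from 0.869-fold to 1.16-fold, and limma gave an unadjusted p of 0.949. The fitted difference is above 0 although the Lmx1b cKO mean is the lower one, by an amount far under the error of either.

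The ligands of this system had few reads. *Nrtn* (chr17:56751325-56757530, minus strand) had 40.3, 57.1 and 44.4 normalized counts in the Lmx1b cKO, from 43, 54 and 41 reads. The controls had 47.8, 75.9 and 65.9, from 54, 79 and 61 reads. The highest Lmx1b cKO library was above the lowest control library. With means of 47.2 ± 8.74 and 63.2 ± 14.2 (SD, n = 3 each) the log2 difference was -0.40 (SE 0.29), and limma gave an unadjusted p of 0.195. The 95% interval of *Nrtn*, from 0.489-fold to 1.18-fold, was the widest of the 8, so that a mean in the Lmx1b cKO as low as the lower bound lies within the error.

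*Gdnf* itself (chr15:7810846-7837575, plus strand) was represented by 13, 5 and 11 reads in the Lmx1b cKO libraries and 9, 5 and 16 in the controls. Its overall mean of 9.90 normalized counts fell just under the minimum of 10, so *Gdnf* was not tested, whereas *Nrtn*, the lowest tested member, had a mean of 55.2. Means were 9.79 ± 3.91 and 10.02 ± 6.49 normalized counts (SD, n = 3 each). The groups overlapped fully. The summed reads, 29 against 30, gave a ratio of 1.02 after scaling to the depth of each group, with a counting interval of 0.590 to 1.76, where the ratio of the 2 means was 0.977. Such intervals cover counting error only.

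**Figure D1:**
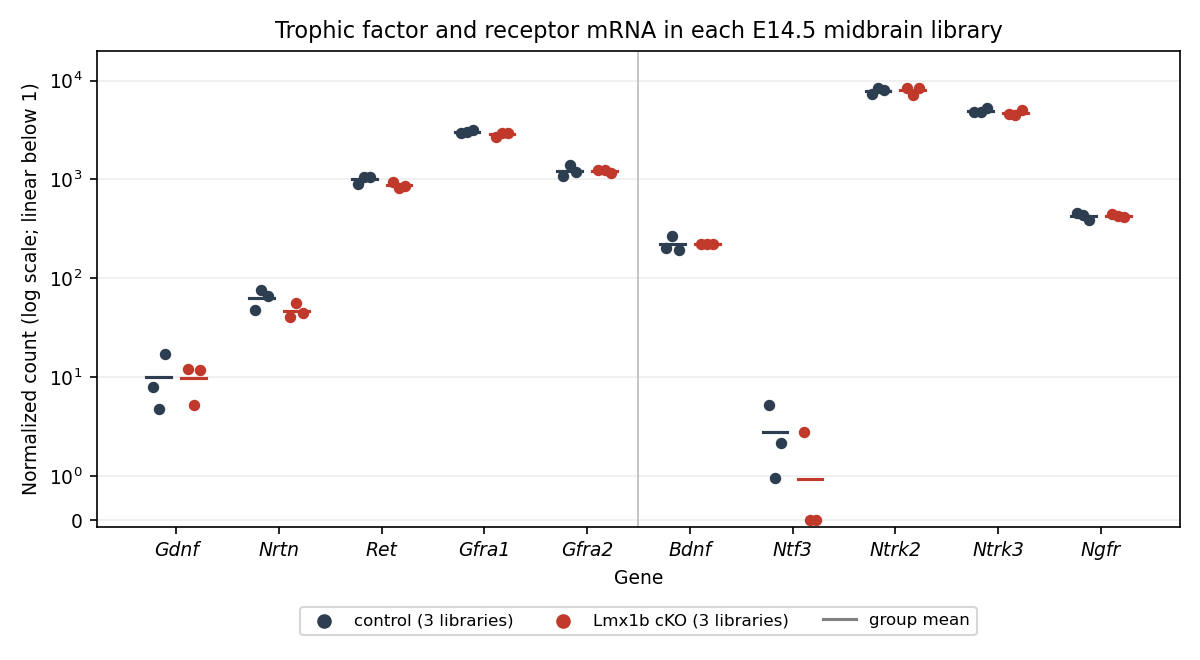
Normalized counts of the 10 members in each library on a log axis, with points for single libraries of the control and Lmx1b cKO groups and a bar at the mean of each group. The groups overlap for every tested member except *Gfra1*, and *Gdnf* and *Ntf3* lie at the bottom of the range.

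Among the neurotrophin receptors, *Ntrk2* (chr13:58806569-59133970, plus strand) had the most reads of all members, before any scaling by length. Lmx1b cKO libraries held 8378, 7108 and 8384 normalized counts of *Ntrk2*, and control libraries 7294, 8421 and 7938. The lowest value was that of Lmx1b cKO library b, followed by control library a, and the groups overlapped. The means of 7957 ± 735 and 7884 ± 565 (SD, n = 3 each) gave a log2 difference of 0.014 (SE 0.070), a 95% interval from 0.909-fold to 1.12-fold and an unadjusted limma p of 0.841. The spread within groups was 8.28% of the mean against 1.12% from counting.

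*Ntrk3* (chr7:78175959-78738012, minus strand) had 4610, 4500 and 5076 normalized counts in the Lmx1b cKO, against 4823, 4818 and 5238 in the controls. Library c was the highest in both groups, and 1 Lmx1b cKO library exceeded 2 of the control libraries. The means were 4729 ± 306 and 4960 ± 241 (SD, n = 3 each), with a log2 difference of -0.07 (SE 0.058), a 95% interval from 0.874-fold to 1.04-fold and an unadjusted limma p of 0.258. *Ntrk2* and *Ntrk3* are annotated with 10 and 20 transcripts, among them forms without a kinase domain, and counts per gene do not separate these from the full-length receptors.

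*Ngfr* (chr11:95568818-95587735, minus strand), which in embryos also marks neural crest derivatives and Schwann cells, had 443, 427 and 416 normalized counts in the Lmx1b cKO and 458, 435 and 390 in the controls. The values of the Lmx1b cKO fell inside the range of the controls. The means of 429 ± 13.8 and 428 ± 34.8 (SD, n = 3 each) differed by 0.00064 on the log2 scale (SE 0.11), with a 95% interval from 0.852-fold to 1.17-fold and an unadjusted limma p of 0.995. Of the 4 Schwann cell and neural crest markers, 2 were tested, with none called at an unadjusted limma p under 0.05. The share called over all tested genes was 2.79%. The defining marker *Foxd3* was below the minimum. The summed level of the 4 markers was 789 to 899 normalized counts in the Lmx1b cKO and 824 to 901 in the controls.

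*Bdnf*, the ligand of TrkB (chr2:109674700-109727007, plus strand), had 221, 224 and 224 normalized counts in the Lmx1b cKO and 205, 270 and 193 in the controls. The Lmx1b cKO libraries were nearly identical and lay within the spread of the controls. Their mean of 223 ± 1.69 equalled the control mean of 223 ± 41.2 (SD, n = 3 each) after rounding. The log2 difference was 0.013 (SE 0.16), the 95% interval ran from 0.797-fold to 1.28-fold, and the unadjusted limma p was 0.936. The antisense gene *Gm45346* shares 896 bases, or 14.4%, of the exon length of *Bdnf*.

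*Ntf3*, the ligand of TrkC (chr6:126101412-126166910, minus strand), was at the limit of detection. It was counted with 3, 0 and 0 reads in the Lmx1b cKO and 6, 1 and 2 reads in the controls. All Lmx1b cKO libraries were therefore at or under the limit of 3 reads that a count of 0 allows in a library, and so were 2 of the 3 control libraries. The summed reads, 3 against 9, gave a ratio of 0.351 after the same scaling with a counting interval from 0.0612 to 1.41, and no difference was detectable at this depth.

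**Figure D2:**
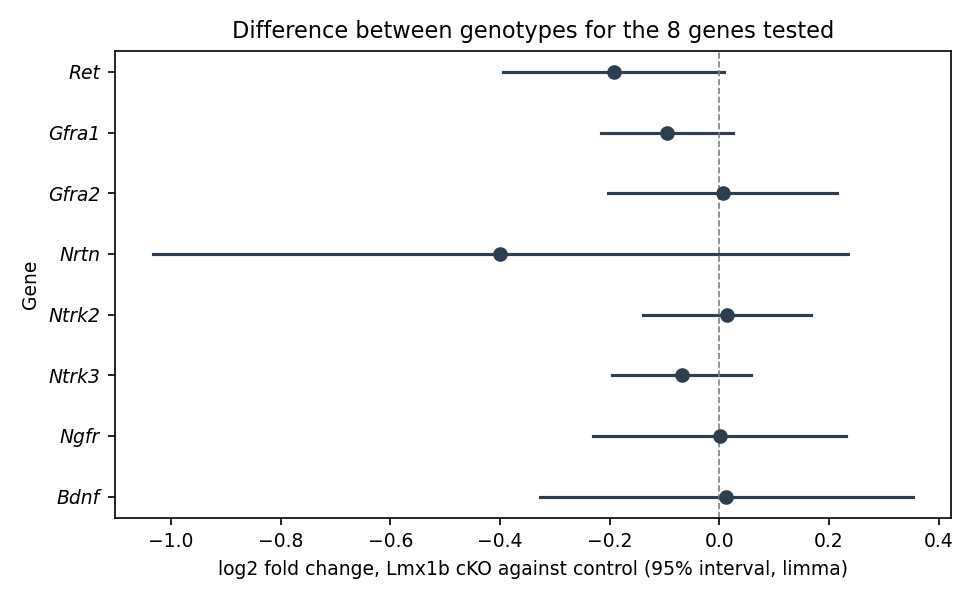
Log2 difference of Lmx1b cKO minus control for the 8 tested members, with points for the limma estimate and bars for its 95% interval. Every interval includes 0, from *Gfra1* at -0.10 with an SE of 0.055 to *Nrtn* at -0.40 with an SE of 0.29.

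Levels can be compared between genes only per length, and here each normalized count was divided by the kilobases of the gene's merged exons. The mean over 6 libraries was highest for the co-receptor *Gfra1*, with 538 normalized counts per kilobase. It was followed by *Ntrk2* with 411, *Gfra2* with 346, *Ntrk3* with 161, *Ret* with 139 and *Ngfr* with 124. The 4 ligands took the lowest places, with 54.0 for *Nrtn*, 35.9 for *Bdnf*, 2.70 for *Gdnf* and 1.09 for *Ntf3*. All receptors thus ranked above all ligands, and the ranges over libraries of *Ngfr*, the lowest receptor, and *Nrtn*, the highest ligand, did not overlap. Of the 9 pairs of neighbours in this order, 5 had overlapping ranges: *Ntrk2* and *Gfra2*, *Ntrk3* and *Ret*, *Ret* and *Ngfr*, *Nrtn* and *Bdnf*, and *Gdnf* and *Ntf3*. The largest step was the 13.3-fold gap between *Bdnf* and *Gdnf*. The exon length decides the first place. With the longest annotated transcript in place of merged exons, *Ntrk2* came first with 906 and *Gfra1* second with 635 normalized counts per kilobase, and the other members kept their places.

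**Figure D3:**
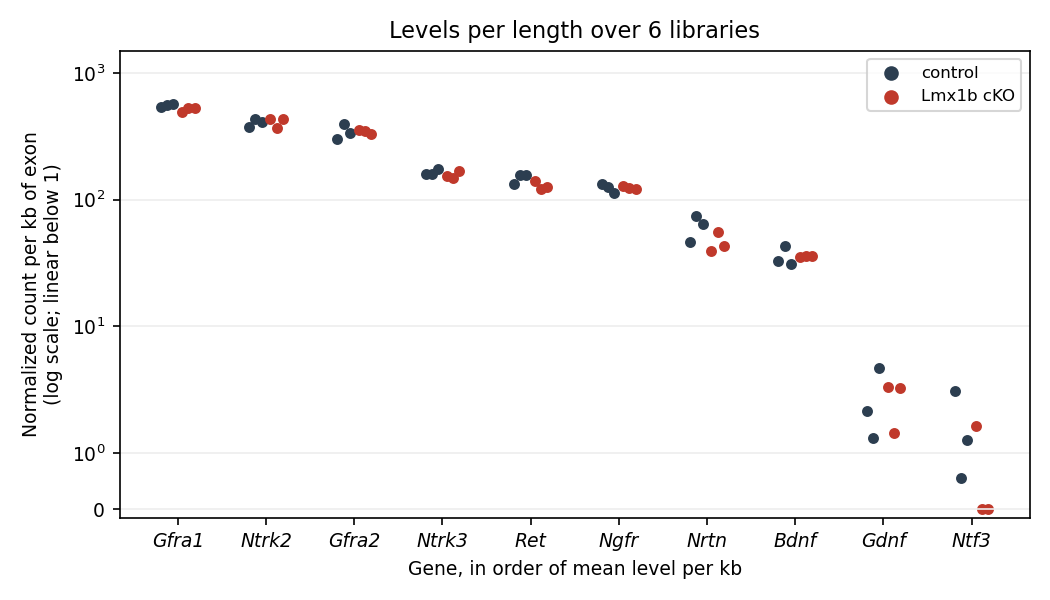
Normalized counts per kilobase of merged exons for the 10 members on a log axis, linear below 1, in falling order of the mean over 6 libraries, with a point for each library of both groups. The means of receptors run from 538 (*Gfra1*) down to 124 (*Ngfr*), and ligands from 54.0 (*Nrtn*) down to 1.09 (*Ntf3*).

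Ratios of 2 genes inside a library do not depend on the size factor, and 7 such ratios were compared between the groups. The ratio of *Gfra1* to *Ret* was 2.85, 3.56 and 3.42 in the Lmx1b cKO and 3.26, 2.88 and 2.95 in the controls. The groups overlapped, with an exact permutation p of 0.4. Per kilobase, *Gfra1* stood at 3.89 times *Ret* over the 6 libraries, with a range from 3.52 to 4.39, so the co-receptor exceeded the signalling receptor in every library. The ratio of *Gfra1* to *Gfra2* was 2.15, 2.36 and 2.51 against 2.74, 2.15 and 2.64, with an exact permutation p of 0.5. For the Trk receptors, *Ntrk2* to *Ntrk3*, it was 1.82, 1.58 and 1.65 against 1.51, 1.75 and 1.52, with an exact permutation p of 0.5. The groups overlapped for both pairs.

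*Ret* was also set against *Th*, the rate-limiting enzyme of dopamine synthesis, next to the values of 8 mdDA neuron markers, all of which were detected and tested. Of these, 7 were lower and 1 higher, the median log2 difference was -0.20, and *Ddc* at -0.24 and *Pitx3* at -0.41 had an unadjusted limma p under 0.05, beside the 1.61% of all tested genes. Both calls depended on single libraries. *Ddc* was at -0.11 with an unadjusted limma p of 0.147 without control library c and at -0.25 to -0.23 without any one of the Lmx1b cKO libraries, where only the threshold was missed. *Pitx3* was at -0.24 with an unadjusted limma p of 0.21 without Lmx1b cKO library a and at -0.44 to -0.37 without any one of the control libraries, where again only the threshold was missed. *Th* had means of 752 and 847 normalized counts, a log2 difference of -0.16, which was -0.06 without control library c. The ratio of *Ret* to *Th* was 1.28, 1.12 and 1.097 in the Lmx1b cKO and 1.16, 1.34 and 1.09 in the controls. These groups overlapped, with means of 1.17 ± 0.0971 and 1.20 ± 0.126 (SD, n = 3 each), a log2 difference of -0.04 and an exact permutation p of 0.7. With 1 library left out it ran from -0.11 to 0.044, and was above 0 without Lmx1b cKO library c or control library b. The difference for *Ret* alone was -0.19, and the change from one to the other was not tested. The summed level of the mdDA markers was 9105 to 9306 normalized counts in the Lmx1b cKO and 9148 to 10784 in the controls, and its part in the values of *Ret* was not tested. The ratio of *Gfra1* to *Th*, at 3.64, 3.99 and 3.75 against 3.80, 3.85 and 3.22, also overlapped, with an exact permutation p of 0.7 and a log2 difference of -0.01 to 0.12 with 1 library left out.

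The remaining ratios set a ligand against its receptor. *Nrtn* to *Gfra2* was 0.0320, 0.0461 and 0.0381 in the Lmx1b cKO and 0.0444, 0.0537 and 0.0553 in the controls, with an exact permutation p of 0.2. *Bdnf* to *Ntrk2* was 0.0264, 0.0315 and 0.0267 against 0.0281, 0.0321 and 0.0244, with an exact permutation p of 1. The groups overlapped for *Bdnf* and, through Lmx1b cKO library b and control library a, for *Nrtn*. These ratios are of counts per gene and are not scaled to length.

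**Figure D4:**
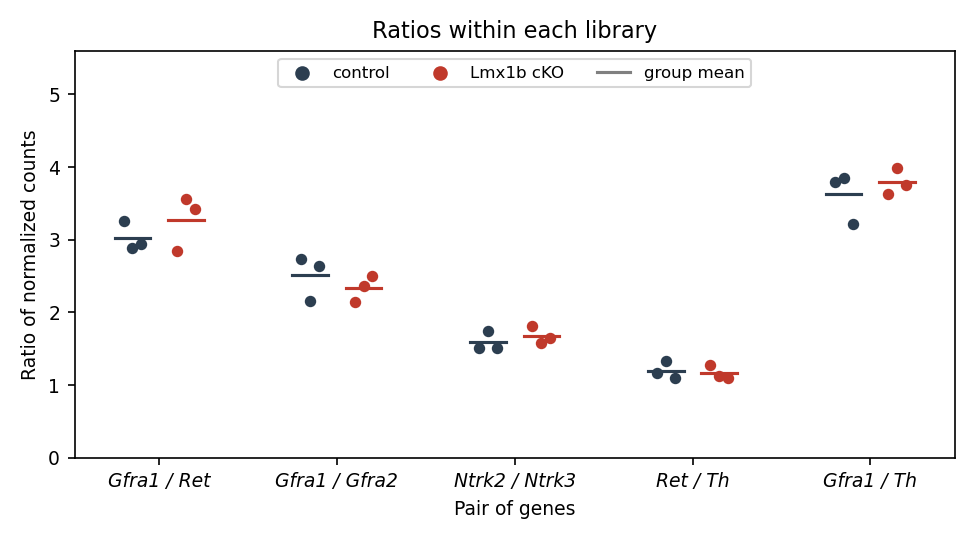
Ratio of the normalized counts of 5 pairs of genes within each library, with points for single libraries of the control and Lmx1b cKO groups and a bar at each group mean. The groups overlap for all 5 pairs, and the ratio of *Ret* to *Th* has means of 1.17 in the Lmx1b cKO and 1.20 in the controls.

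The pattern of each tested member over the 6 libraries was compared with 97 genes of the lists below and of the other members, by the root mean square difference of log2 normalized counts after centring each gene. *Ret* was closest to *Mmp9* (0.068) and *Furin* (0.083), where its own root mean square deviation was 0.14. *Gfra1* was closest to *Dok5* (0.033, own deviation 0.066), *Gfra2* to *Sh2b2* (0.058, own 0.12), *Ntrk2* to *Gab2* (0.047, own 0.10) and *Ntrk3* to *Nr4a2* (0.047, own 0.075). *Nrtn* was closest to *Foxa2* (0.19, own 0.32) and *Bdnf* to *Gfra2* (0.088, own 0.15). For *Ngfr* the nearest gene, *Rgs5* (0.062), was little closer than a flat line, since its own deviation was 0.074. These are descriptions over 6 libraries that share their depth and dissection.

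The other genes of both systems gave few calls. Among 7 further genes of the Gdnf family, only *Gfra4*, the co-receptor for persephin, was tested, with means of 427 and 421 normalized counts in the Lmx1b cKO and control, a log2 difference of 0.023 and an unadjusted limma p of 0.839. The other ligands and co-receptors *Artn*, *Pspn*, *Gfra3*, *Gfral* and *Gdf15* were below the minimum. *Ncam1*, an adhesion molecule that can bind Gdnf without *Ret*, was above the range in which reads could be recovered, and the authors' means are 36713 in the Lmx1b cKO and 35531 in the controls.

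Of 8 further neurotrophins, receptors and sorting receptors, 6 were tested, 1 lower and 5 higher, with 0 called at an unadjusted p under 0.05 in limma. The share called over all tested genes was 2.79%. Their median log2 difference was 0.066, and the largest mean was that of the sorting receptor *Sort1*, with 6569 in the Lmx1b cKO and 6369 in the controls. The ligand *Ntf5* was below the minimum.

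Of 18 adaptors and scaffolds that couple Ret and Trk receptors to their pathways, 17 were tested, 10 lower and 7 higher, with 0 called and a median log2 difference of -0.01. *Plcg1*, the phospholipase recruited by active receptors, had the largest mean of those tested, with 7193 and 7082 normalized counts. For *Kidins220*, a Trk substrate above the recoverable range, the authors' means are 33658 in the Lmx1b cKO and 32968 in the controls. Among 8 partners of *Ngfr*, 7 were tested with 0 called and a median of -0.0096, and *Maged1* had authors' means of 37700 and 37072. Among 8 genes for the maturation and release of neurotrophins, 6 were tested, 5 lower and 1 higher, with 0 called and a median of -0.09, and the authors' means of *Cpe* are 26536 and 26697. Among 8 other trophic factors and receptors for dopaminergic neurons, 7 were tested with 0 called and a median of -0.03, and *Ptn* (pleiotrophin) had the largest mean with 7771 and 8005. These counts of 0 stand beside the 2.79% of all tested genes that were called, and they moved with single libraries. Without Lmx1b cKO library c, *Pcsk5* and *Plat* of the maturation list (-0.38 and -0.20) and *Lifr* of the trophic list (-0.41) were called, and without control library b or c *Lifr* (-0.36) or *Ptn* (-0.18) was. Without control library b the adaptor *Sh2b2* (0.18) was called, and without Lmx1b cKO library b the sorting receptor *Sorcs3* (0.20). With no minimum mean, 1 gene below the minimum was called in each of the lists of other Gdnf family genes (*Gfra3*) and other neurotrophins.

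The list of negative regulators and transcriptional targets of Erk signalling, a pathway that Ret and Trk receptors share with other receptor tyrosine kinases, gave 2 calls. All 10 genes were tested, 8 lower and 2 higher, with a median log2 difference of -0.19, and 2 (*Etv4* and *Etv5*) had an unadjusted limma p under 0.05 in the lower direction, where the share over all genes was 1.61%. *Etv4*, an Ets transcription factor, had 159, 118 and 134 normalized counts in the Lmx1b cKO and 180, 218 and 190 in the controls. Its groups did not overlap, and the log2 difference was -0.51 (SE 0.17) with an unadjusted p of 0.0129 and an adjusted p of 0.9999 in limma. *Etv5*, a close relative, had 468, 337 and 558 against 628, 541 and 525, with overlapping groups, a log2 difference of -0.34 (SE 0.16) and an unadjusted limma p of 0.0474. Without Lmx1b cKO library b, *Etv4* was at -0.41 and just missed the threshold with an unadjusted limma p of 0.0566. *Etv5* was at -0.15 without that library, with an unadjusted limma p of 0.258, and at -0.26 without control library a, where its unadjusted limma p was 0.153. It was at -0.39, -0.38 and -0.39 without Lmx1b cKO library a or control library b or c, and there missed the threshold with a difference no smaller than in all libraries. Limma-trend at either pseudocount and a minimum mean of 50 left *Etv4* as the 1 call of the list, with *Etv5* at -0.34 to -0.33. *Dusp4*, a phosphatase of Erk and the gene with the largest mean, had 4949 and 5066.

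**Figure D5:**
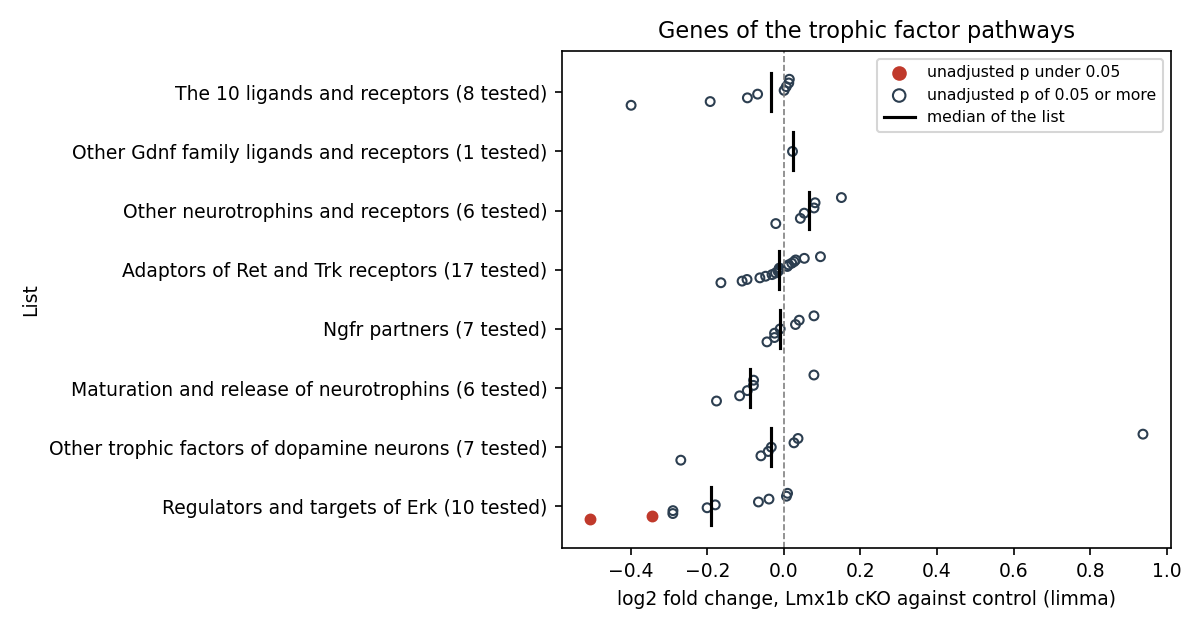
Log2 difference of Lmx1b cKO minus control for each tested gene of the members and the 7 other lists, with a point per gene and a bar at the median of each list. Most lists have medians near 0, and the Erk list has a median of -0.19 with *Etv4* at -0.51.

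Some markers of other cell types differed widely between libraries of a group or had an unadjusted limma p under 0.05. None had an adjusted limma p under 0.05. The summed level of 9 markers of bone, mesenchyme and meninges was 13605 normalized counts in Lmx1b cKO library c and 2069 in library a, against 512 in library b and 515 to 629 in the controls. All 8 tested markers of this list were higher, with a median log2 difference of 1.80. *Col3a1* had an unadjusted limma p under 0.05, which is what called means for the lists that follow, where the share over all genes was 1.18% higher and 1.61% lower. Its log2 difference was 1.84, and 1.03 without Lmx1b cKO library c, and without any one of the control libraries it was 1.75 to 1.90, where only the threshold was missed. In library c, *Ret* at 854 and *Gfra1* at 2919 normalized counts lay between the values of the other Lmx1b cKO libraries, *Ntrk3* at 5076 was the highest of the 3 and *Ngfr* at 416 the lowest. Of 5 radial glia and astrocyte markers, a cell class that also carries *Ntrk2*, 3 were tested, and *Slc1a3* and *Aldh1l1* were called lower. *Aldh1l1* was below every control library in all 3 Lmx1b cKO libraries, with a log2 difference of -0.22, and was called without any one library. *Slc1a3*, at -0.21 with overlapping groups, was at -0.17, -0.17 and -0.18 without Lmx1b cKO library a or control library a or c, where it missed the threshold. The summed level of the 3 tested markers, of which *Nes* at -0.04 is the most abundant, was 12662 to 15178 in the Lmx1b cKO and 14338 to 15655 in the controls. *Fabp7* and *Vim* were above the recoverable range, with authors' means of 12594 and 10031 in the Lmx1b cKO and 13725 and 11056 in the controls. The part of these markers in the values of *Ntrk2* was not tested. Of 7 motor and sensory neuron markers, 6 were tested, 4 lower and 2 higher, and *Prph* was called lower, at -0.59 and without overlap of the groups. In the same list *Pou4f1*, with the largest mean, was at -0.11, and *Isl1* was at 0.36, not called. *Isl1* had 984, 1650.5 and 944 normalized counts in the Lmx1b cKO against 901, 1044 and 755 in the controls. Its Lmx1b cKO library b thus stood apart. Of 4 serotonergic markers, *Slc6a4*, *Tph2* and *Fev* were called lower, at -1.23, -0.86 and -0.93, while *Gata3*, by far the most abundant of the list and shared with midbrain GABAergic neurons, had means of 2606 and 2620 normalized counts and was at 0.0028. *Slc6a4* did not overlap between the groups and was called without any one library, whereas *Tph2* was at -0.57 and not called without Lmx1b cKO library b, and *Fev* was at -0.50 and not called without Lmx1b cKO library a. *Fev* also missed the threshold without Lmx1b cKO library b (-0.85) or control library c (-0.88), and *Tph2* was at -1.25 and *Fev* at -1.40 without Lmx1b cKO library c. None of the 5 markers of endothelium and pericytes was called.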

How the data were processed

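Midbrain RNA of Lmx1b cKO and control embryos was sequenced in 3 libraries per genotype. The values the authors deposited are a normalized coverage signal: for each gene and genotype, the mean over its libraries of size-factor-scaled read counts. The submitters' processing notes name TopHat 1.0.14, Bowtie2 2.1.0, HTSeq 0.6.1p1, DESeq 1.10.1 and the build GRCm38.p4, and the paper names DESeq2. The strand setting is not given in the sources used here. The table also holds the authors' ratios, log2 ratios and p-values, which were not used. Its 3 lines that name no gene hold 31.8% of the mean counts and were left out.

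Since each group mean is a sum of whole reads over known steps, the reads of each library were recovered for 26355 genes (98.1%), with a search up to 30000 reads per group. The recovered genes carry 69.5% of the normalized counts on lines that name a gene. Recovered reads ranged from 20629683 to 25051860 per library, so full depth was greater, and precision is given beside each value. The libraries carry no sample number, and p-values measure the spread between libraries of pooled embryos. Limma 3.58.1 (voom weights, R 4.3.3) was run on genes with a mean of at least 10 normalized counts, using the recovered size factors. A trial run used simulated counts with the same relative spread beyond counting for every gene, so it does not check the error in these data. P-values were adjusted by the Benjamini-Hochberg method, and exact two-sided permutation tests were made with scipy 1.17.1. Coordinates and exon lengths are from GENCODE M21 (GRCm38), and 26693 gene IDs matched a symbol.

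Members and lists were chosen with earlier results of these data known. All members are named, and of each other list the genes with an unadjusted p under 0.05 in limma and the gene with the largest mean. Further genes named from these lists (*Th*, *Gfra4*, *Nes*, *Isl1* and genes below the minimum or above the search), *Ddx3y* and genes called only under an alternative were chosen after their values were seen. Alternatives were limma-trend with pseudocounts of 1 and 10, no minimum or a minimum of 50, upper-quartile and median-of-ratios scaling, and each library left out. The leave-one-out values of ratios and lists and the order by longest transcript were added after seeing the data.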

Additional observations from a re-analysis of the deposited data

How the results depend on the processing

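*Gfra1*, *Nrtn* and *Ntrk3* kept their direction and stayed above an unadjusted p of 0.05 in all 12 alternatives, with log2 differences of -0.12 to -0.06, -0.61 to -0.25 and -0.12 to -0.03. *Ret* kept its direction in all 12, from -0.28 to -0.15. The number of members with an unadjusted p under the threshold was 0 in the analysis above and 1 (*Ret*) with limma-trend at pseudocounts of 1 and 10, and it ranged from 0 to 1 when a library was left out. Limma-trend gave *Ret* unadjusted values of 0.0453 and 0.0445. The sign of the 4 members nearest to 0 depended on single libraries. Leaving 1 out gave -0.092 to 0.12 for *Gfra2*, -0.043 to 0.092 for *Ntrk2*, -0.059 to 0.055 for *Ngfr* and -0.071 to 0.16 for *Bdnf*, and *Ngfr* was -0.0032 with upper-quartile scaling. Over all genes, 466 had an unadjusted p under 0.05, 971 with no minimum, which tests more genes, and 330 to 632 without a library. The count at an adjusted p under 0.05 was 0, and 0 to 4 without a library. The 4, without control library a, were *Kdm5d*, *Uty*, *Ddx3y* and *Gm11702*, named after their values were seen, of which *Kdm5d*, *Uty* and *Ddx3y* lie on the Y chromosome and had their lowest values in control library a. No paired analysis was possible because the recovered libraries carry no replicate number. *Gdnf*, *Ntf3* and *Nrtn* had the fewest reads, and the spread within groups of *Gdnf* (54.1%) and *Nrtn* (21.4%) was above that from counting (32.0% and 13.5%).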
